A study of Mus musculus with 6 samples.

Results

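The accessibility of the genes encoding the Itga8 integrin and its extracellular ligands was measured in nephron progenitor cells, the self-renewing mesenchyme of the outer kidney that forms the nephrons. Accessibility was read by ATAC-seq: the Tn5 transposase cuts open DNA, and the counts in a region reflect how open it was. The cells came from CD1 mice, an outbred strain, at mid-gestation (E14.5) or on the day of birth (P0), with 3 libraries at each stage and no other treatment or genotype. Each library was made from 50000 cells of up to 24 pooled kidneys; the pools were made by litter, but the labels do not say which litter each library came from, and p-values measure only the spread between these libraries. Both stages share a purification on magnetic beads with Itga8 antibodies, so every library came from cells chosen for this integrin. In such pools, a region open in fewer cells and a region less open in every cell cannot be told apart.

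The 10 genes were Itga8, Itgb1, Itgav, Itga9, Npnt, Fras1, Frem1, Frem2, Fn1 and Tnc. Their regions were those of the deposited table whose midpoint lay in the RefSeq gene body or within 50 kb of it (mm10 coordinates). This gave 72 of the 43523 distinct regions, from 2 at Itga9 to 17 at Fras1, and no region was shared between genes. Of these, 10 lay at or nearest to the start of their gene, 32 elsewhere in a gene body, 17 upstream and 13 downstream. At the edge of the rule, the farthest region inside lay 48.3 kb from Itgav (log2 fold change of P0 against E14.5, 0.20), and the nearest outside lay 50.2 kb from Frem2 (0.31) and 51.7 kb from Tnc (0.94).

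Integrins are receptors for the extracellular matrix, made of an alpha and a beta chain. In the developing kidney, the alpha chain encoded by Itga8 pairs with the beta-1 chain of Itgb1 on the nephron progenitors and binds nephronectin (Npnt) in the basement membrane of the neighbouring ureteric bud. Fras1, Frem1 and Frem2 encode a complex of that basement membrane, named after Fraser syndrome, which holds nephronectin in place. Loss of this receptor, of nephronectin or of the complex is known to impair the outgrowth of the ureteric bud. Fibronectin (Fn1) and tenascin-C (Tnc) are further matrix ligands, and Itgav and Itga9 encode alpha chains of other integrins that bind them.

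Counts in regions totalled 6492996 to 12292629 per library, of which the 72 regions held 0.131% to 0.162%. The lowest count of any of the 72 regions was 6 and the median count per library ran from 112 to 197, so counting noise was small for most of them. The region with the most counts took 5.95% to 11.8% of the counts of a library. Promoter regions were listed for 3 of 5 nephron progenitor markers (Six2, Eya1 and Osr1, but not Cited1 or Meox1), with a summed accessibility of 68.2 to 77.2 CPM (counts scaled to a common library size) at E14.5 and 61.9 to 77.2 at P0. They were also listed for 4 of 5 ureteric bud markers (90.5 to 106 CPM at E14.5 and 79.8 to 91.9 at P0), for 1 of 5 stromal markers (of which Pdgfra was not matched by name; 20.4 to 25.1 and 16.0 to 27.4), for 1 of 5 endothelial markers (19.8 to 29.6 and 22.7 to 31.2) and for 0 of 3 immune markers. None of these promoter regions passed the threshold between the stages in edgeR's quasi-likelihood test, and the part of other cell types in the results below was not tested.

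The promoters at the gene starts of the receptor chains, of nephronectin and of tenascin-C are shown because they were open at both stages. The regions that passed the threshold lay outside these start regions, but 1 of them, inside Tnc, is also classed in the table as a promoter of Tnc. Each window covers 250 bases before and 50 bases after a RefSeq start (GRCm38.p6, the assembly named mm10), 5′ to 3′ on the strand of the gene, and lay inside the region at the start of its gene. Capitals mark the GC box (GGGCGG or its reverse CCGCCC) and the TATA-like sequences TATAAA and TATATAA, searched on both strands.
Itga8, chr2:12301895-12302194, minus strand: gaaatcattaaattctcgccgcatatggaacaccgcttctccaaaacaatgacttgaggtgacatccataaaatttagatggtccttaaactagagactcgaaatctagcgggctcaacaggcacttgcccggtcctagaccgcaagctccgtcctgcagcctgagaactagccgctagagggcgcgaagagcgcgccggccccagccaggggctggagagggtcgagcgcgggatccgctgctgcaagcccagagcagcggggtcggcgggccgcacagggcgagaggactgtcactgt
Itgb1, chr8:128685404-128685703, plus strand: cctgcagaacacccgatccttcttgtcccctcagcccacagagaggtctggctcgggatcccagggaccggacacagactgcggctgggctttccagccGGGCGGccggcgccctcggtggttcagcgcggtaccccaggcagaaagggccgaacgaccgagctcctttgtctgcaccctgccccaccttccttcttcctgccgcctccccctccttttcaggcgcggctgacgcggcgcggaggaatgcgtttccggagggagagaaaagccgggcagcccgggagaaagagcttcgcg
Npnt, chr3:132950242-132950541, minus strand: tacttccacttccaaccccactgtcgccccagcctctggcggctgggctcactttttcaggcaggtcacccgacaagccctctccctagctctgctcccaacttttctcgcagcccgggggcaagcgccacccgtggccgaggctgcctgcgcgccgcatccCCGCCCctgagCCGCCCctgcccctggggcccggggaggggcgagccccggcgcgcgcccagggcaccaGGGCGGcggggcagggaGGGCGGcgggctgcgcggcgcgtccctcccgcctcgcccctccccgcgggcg
Tnc, chr4:64046887-64047186, minus strand: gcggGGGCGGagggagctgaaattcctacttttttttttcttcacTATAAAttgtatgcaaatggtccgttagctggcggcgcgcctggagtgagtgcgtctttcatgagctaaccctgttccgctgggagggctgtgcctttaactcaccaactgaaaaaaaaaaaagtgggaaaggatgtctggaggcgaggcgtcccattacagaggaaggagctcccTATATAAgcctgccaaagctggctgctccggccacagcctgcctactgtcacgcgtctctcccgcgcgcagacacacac

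RefSeq gives 2 windows each for Npnt and Tnc, both inside the start region, and 1 of each is shown. The Npnt window shown held 4 GC boxes and 32 CpG dinucleotides, the other (chr3:132949765-132950064) 0 GC boxes and 26 CpGs, and the Itgb1 window 1 GC box and 27 CpGs. The Itga8 window had 23 CpGs and none of the motifs searched. Over all 32851 RefSeq windows of this length, the median was 7 CpGs, and 35.7% held a GC box. Of the 4 windows, that of Tnc alone held TATA-like sequences: TATAAA, found in 13.6% of all windows, and TATATAA, found in 3.24%, which began 29 bases before the start, at position 222 of the window, where position 251 is the start. It also held 16 CpGs and 1 GC box. This start lies downstream of the start of the gene body, from which distances are counted here; the window of the latter (chr4:64046966-64047265) held TATAAA but not TATATAA, with 10 CpGs. RefSeq windows were found for 8 of the 10 genes. The RefSeq window given for Itga9 (chr9:118711442-118711741) lay in no region of the table, while the first base of the gene body did lie in one.

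All 10 genes had an open region at or near their start, at both stages. Per kb of region length, accessibility averaged over the 6 libraries was highest at Itgb1 with 40.1 ± 7.60 CPM per kb (SD, n = 6), followed by Itgav (33.7 ± 11.6), Tnc (28.0 ± 5.65) and Fn1 (27.4 ± 3.58). Fras1 (20.4 ± 3.19), Itga8 (17.4 ± 1.26) and Npnt (14.9 ± 2.13) were intermediate. Frem2 (12.4 ± 0.88), Frem1 (9.40 ± 1.49) and Itga9 (7.44 ± 1.80) were lowest. The ranges over the 6 libraries overlapped for each pair of neighbours in this order. Some genes further apart were separate: the Itga8 start (15.6 to 18.5 CPM per kb) lay below that of Itgb1 (26.0 to 47.3) and above that of Frem2 (11.1 to 13.4). Compared within libraries, even neighbours could be ranked. The Itga8 start was above that of Npnt, and the Frem2 start above that of Frem1, in each of the 6 libraries. The table classes the start region of Itga8 as the promoter of E030013I19Rik and that of Fn1 as the promoter of Apol7d, both overlapping long noncoding RNA genes in RefSeq, so accessibility there cannot be assigned to one gene.

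**Figure D1:**
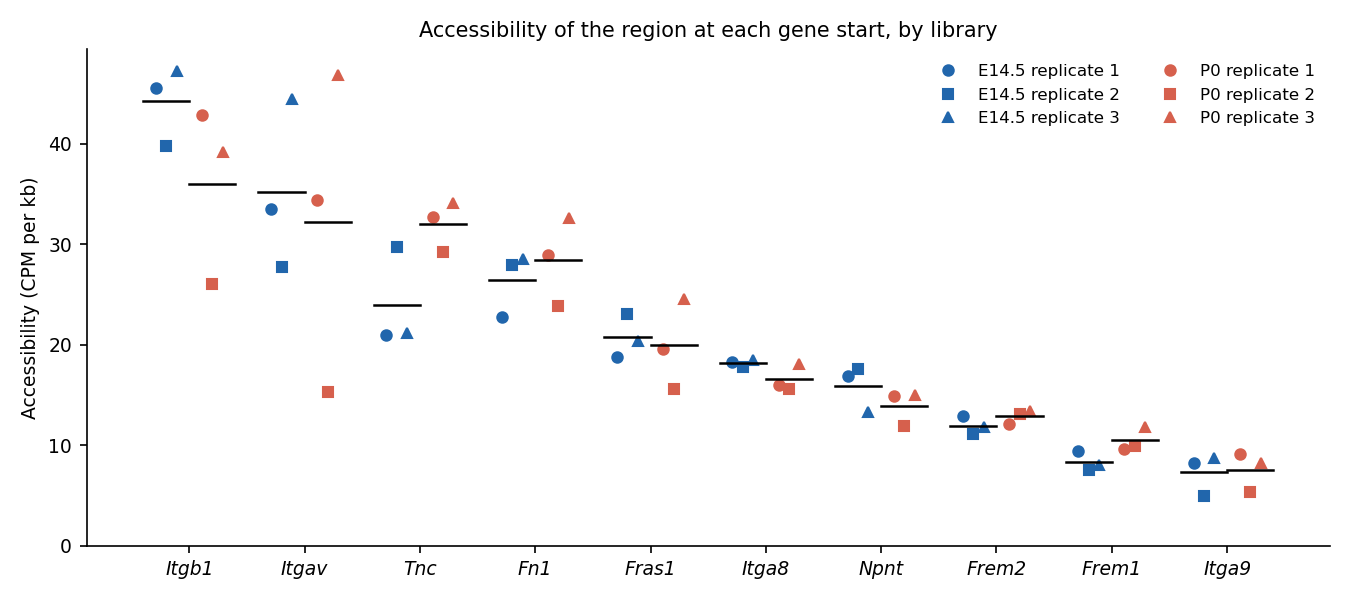
Accessibility (CPM per kb of region length) of the region at the start of each of the 10 genes, ordered by the mean over 6 libraries. Points are libraries, with E14.5 in blue, P0 in red and the replicate given by the marker shape, and black lines are stage means. The stages overlap at 9 of the 10 genes, and P0 replicate 2 is lowest at Itgb1 and Itgav. Over all 14097 regions classed as promoters, the stages do not overlap in 2361.

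None of the 10 start regions passed an adjusted p of 0.05 in edgeR's quasi-likelihood test, in the DESeq2 Wald test or in limma-voom, and 0 had an unadjusted p under 0.05 in edgeR. All 10 are classed as promoters in the table, and of all regions of that class 0.851% passed in edgeR, so a count of 0 is near the background of such regions. Their log2 fold changes of P0 against E14.5 ran from -0.29 at Itgb1 (SE 0.22) to 0.42 at Tnc (SE 0.20). At the Itga8 start, the values were 39.3, 38.3 and 39.7 CPM in E14.5 replicates 1 to 3 and 34.4, 33.4 and 38.9 CPM in P0 replicates 1 to 3. The P0 values reached into the E14.5 range, with a log2 fold change of -0.13 (SE 0.18). The stages were separate at the Frem1 start alone, where all P0 libraries (26.0, 26.8 and 31.7 CPM) were above all E14.5 libraries (25.4, 20.4 and 21.6). The log2 fold change there was 0.33 (SE 0.19, adjusted p = 0.383). Over all regions classed as promoters the stages were separate in 2361 of 14097, so 1 of 10 is near the background of such regions. P0 replicate 2 was well below the other P0 libraries at the Itgb1 start (40.9 CPM against 67.4 and 61.6) and at the Itgav start (26.0 against 58.6 and 79.9).

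The regions past the threshold lay away from the starts. By the classes of the table, 1 of the 18 promoter regions among the 72 (5.56%) and 4 of the 54 others (7.41%) passed, against 0.851% and 6.59% of all regions of these classes. Of the 72 regions, 5 (6.94%) passed an adjusted p of 0.05 in edgeR, close to the 4.73% of all regions tested. At P0, 2 were more accessible (all regions, 1.79%) and 3 less accessible (all regions, 2.94%). At an unadjusted p under 0.05 there were 17 of the 72, 12 higher and 5 lower at P0 (all regions, 18.7%, with 9.85% higher and 8.85% lower). The stages did not overlap in 20 of the 72 regions, 13 with P0 above and 7 with P0 below (all regions, 24.2%, with 11.8% above and 12.4% below). More of the regions had a log2 fold change above 0, 50 of 72 (69.4%) against 51.1% of all regions. By class, the share was 55.6% of the 18 promoter regions (all of that class, 34.0%) and 74.1% of the 54 others (all others, 59.3%). The median log2 fold change was 0.16, against 0.01 over all regions. By class, it was 0.05 for the promoter regions (all of that class, -0.10) and 0.20 for the others (all others, 0.10).

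**Figure D2:**
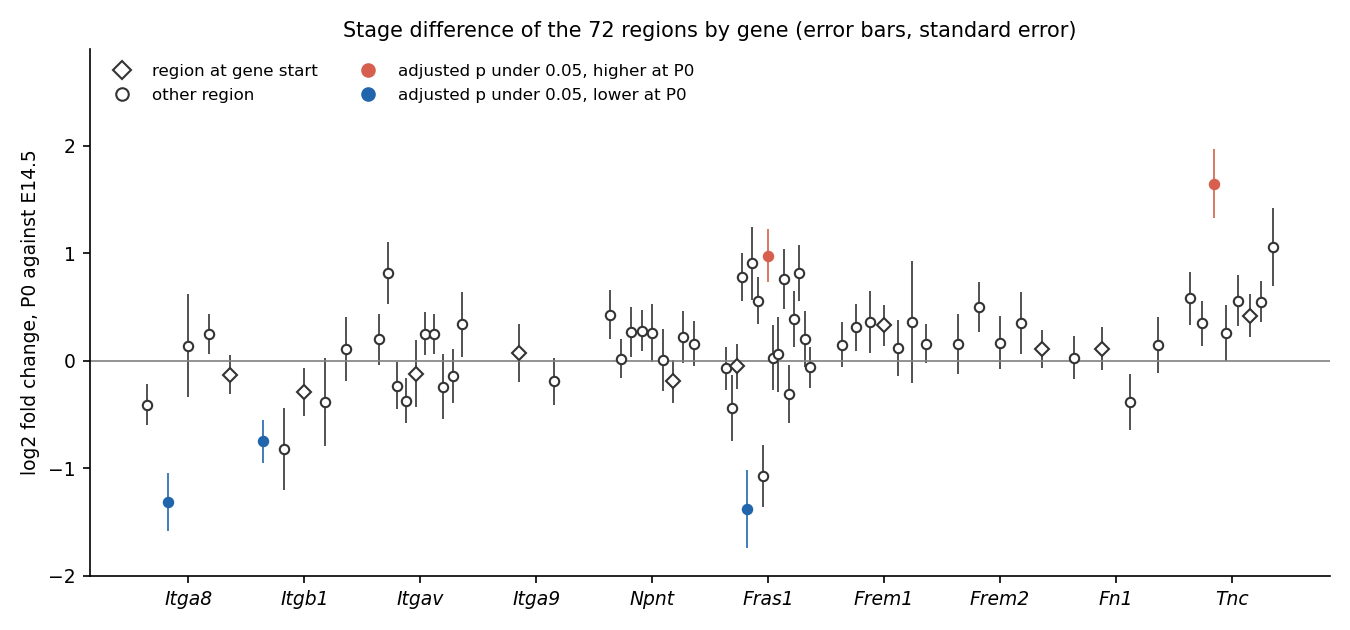
Log2 fold change of P0 against E14.5 for each of the 72 regions, by gene and in genome order within a gene, with its standard error from the edgeR fit. Diamonds are the regions at gene starts, and filled points passed an adjusted p of 0.05 (red, 2 higher at P0; blue, 3 lower); all 8 Tnc regions are above 0.

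The count of 5 differed when single libraries were left out, while the 5 regions kept their direction, with log2 fold changes of -1.69 to -1.09 at Itga8, -0.90 to -0.62 at Itgb1, -1.74 to -1.08 and 0.83 to 1.15 at Fras1, and 1.54 to 1.79 at Tnc. Without E14.5 replicate 3 no region passed in edgeR (11 at an unadjusted p under 0.05), without P0 replicate 1 only 1 did, the Tnc region described below, and without P0 replicate 2 there were 2, at Itga8 and Tnc. Without E14.5 replicate 2 there were 9, of which 8 were higher at P0. The table as a whole moved with these libraries, with 0.779%, 1.09%, 3.8% and 6.86% of all regions passing in the same 4 fits.

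Among the receptor chains, 1 of the 5 regions of Itga8 and 1 of the 5 of Itgb1 fell (of all regions, 4.73% passed and 2.94% fell). The Itga8 region lay inside the gene and outside its exons, 79.9 kb from the start (chr2:12221390-12222681). It measured 27.0, 24.8 and 36.6 CPM in E14.5 replicates 1 to 3 and 7.5, 11.2 and 16.5 CPM in P0 replicates 1 to 3. All P0 libraries were below all E14.5 libraries, P0 replicate 1 the furthest, and the log2 fold change was -1.31 (SE 0.27; adjusted p = 0.0120), 2.49-fold higher at E14.5. Without E14.5 replicate 3 or without P0 replicate 1 the adjusted p was 0.0994 or 0.0742. The remaining 4 Itga8 regions had log2 fold changes of -0.41 to 0.25, so the element at 79.9 kb had the largest difference of the gene. Of these, the region beyond the end of the gene (chr2:12059440-12061087) had 21.5, 25.0 and 24.9 CPM at E14.5 and 19.9, 18.3 and 15.6 CPM at P0, all P0 libraries below (log2 fold change -0.41, SE 0.19, adjusted p = 0.269). The region 8.17 kb into the gene (chr2:12291898-12295724) had all P0 libraries above, with 18.6, 18.1 and 15.9 CPM at E14.5 and 22.7, 19.4 and 20.7 CPM at P0 (log2 fold change 0.25, SE 0.19, adjusted p = 0.523).

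Itgb1 encodes the beta chain that Itga8 pairs with. Its region 31.2 kb upstream of the start (chr8:128653690-128655148), between genes, had 47.3, 43.2 and 46.5 CPM at E14.5 and 32.1, 21.6 and 27.5 CPM at P0. The E14.5 libraries lay close together and all above those of P0, and the log2 fold change was -0.75 (SE 0.20; adjusted p = 0.0427). This call was near the threshold: leaving out any 1 library raised the adjusted p to between 0.0514 and 0.188, and scaling to total counts to 0.0674. A region 5.53 kb upstream (chr8:128679759-128680484) had the largest log2 fold change of the gene, -0.82 (SE 0.38, adjusted p = 0.260). Its stages overlapped, with 12.9, 10.2 and 23.7 CPM at E14.5 and 7.08, 4.39 and 14.3 CPM at P0. Its log2 fold change ran from -0.39 (adjusted p = 0.78) without E14.5 replicate 3 to -1.43 (adjusted p = 0.0258) without P0 replicate 3. The stages overlapped in the 4 Itgb1 regions that did not pass.

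Itgav and Itga9, alpha chains of other matrix integrins, had 0 regions past the threshold in edgeR, DESeq2 or limma-voom, among 10 and 2 regions. At an unadjusted p under 0.05 edgeR gave 1 and 0. Of all regions, 4.73% passed in edgeR, 6.38% in DESeq2 and 4.38% in limma-voom, and 18.7% had an unadjusted p under 0.05 in edgeR. In so few regions these counts are near the background. The region with an unadjusted p under 0.05 lay 31.7 kb upstream of Itgav (chr2:83690140-83691084), with 4.86, 7.18 and 5.25 CPM at E14.5 and 12.1, 10.9 and 7.81 CPM at P0. The stages were separate there, and the log2 fold change was 0.82 (SE 0.29; adjusted p = 0.125). The body of Itga9 spans 294 kb and held 1 region, at its start, with log2 fold change 0.07 (SE 0.27). The other Itga9 region (chr9:118924318-118927331, log2 fold change -0.19, SE 0.22) is the promoter of the neighbouring gene Ctdspl.

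**Figure D3:**
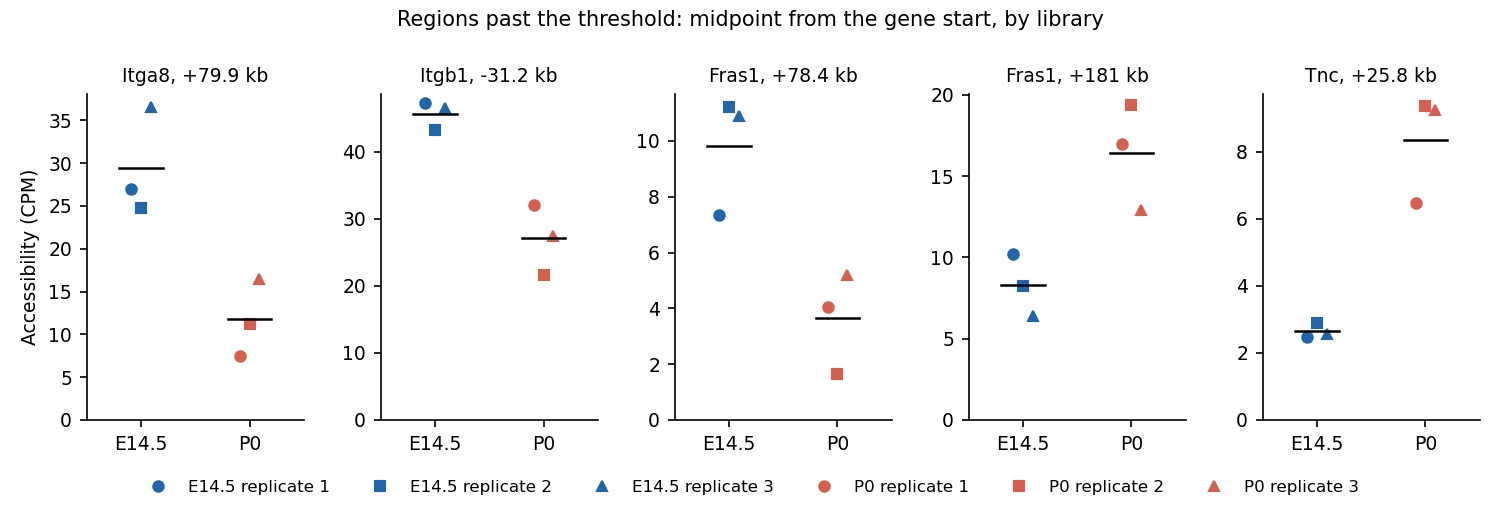
Accessibility (CPM) of the 5 regions that passed an adjusted p of 0.05, in each library (blue, E14.5; red, P0; the marker shape gives the replicate; black lines, stage means). Titles give the gene and the midpoint of the region in kb from its start; the stages do not overlap in any panel.

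Among the ligands, Npnt had 0 of 9 regions past the threshold with edgeR, DESeq2 or limma-voom, and 0 at an unadjusted p under 0.05 in edgeR. The stages overlapped in all 9. With 4.73% of all regions past the threshold, 18.7% at an unadjusted p under 0.05 and 24.2% without overlap, counts of 0 in so few regions, here and at Fn1, are near the background. Its start region measured 45.6, 47.4 and 35.8 CPM at E14.5 and 40.3, 32.1 and 40.3 CPM at P0 (log2 fold change -0.19, SE 0.20). The largest difference of the gene was 0.43 (SE 0.23, adjusted p = 0.340) in a region 42.0 kb beyond the end of Npnt that overlaps an exon of Tbck (chr3:132838401-132840996). Fn1, which encodes fibronectin, likewise had 0 of 4 regions past the threshold in the 3 tools and 0 at an unadjusted p under 0.05 in edgeR. The Fn1 region with the highest CPM, chr1:71556686-71558455, is the promoter of Atic, with a log2 fold change of 0.03 (SE 0.20). The largest difference among the Fn1 regions was -0.38 (SE 0.26, adjusted p = 0.481), 28.9 kb upstream (chr1:71681471-71682951).

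Tnc, whose product tenascin-C is a matrix protein of developing mesenchyme, had a log2 fold change above 0 in each of its regions, as did Frem1 and Frem2. Of its 8 regions, 1 passed the threshold, 5 had an unadjusted p under 0.05, all higher at P0, and the median log2 fold change was 0.56. Of all regions, 4.73% passed, 18.7% had an unadjusted p under 0.05 and 9.85% had one and were higher at P0. A log2 fold change above 0 was found in 51.1% of all regions and in 59.3% of those not classed as promoters. The region that rose lay 25.8 kb into the gene (chr4:64021009-64021438), was classed in the table as a promoter of Tnc, and also lies within the overlapping long noncoding RNA gene 8030451A03Rik. It measured 2.49, 2.89 and 2.57 CPM in E14.5 replicates 1 to 3 and 6.46, 9.38 and 9.24 CPM in P0 replicates 1 to 3. The E14.5 libraries were all below those of P0, and the log2 fold change was 1.65 (SE 0.32, adjusted p = 0.0091), 3.13-fold. The E14.5 values rested on only 21, 33 and 22 counts, so their closeness says little about the spread between libraries. This small region was the most changed of the 72, and its adjusted p exceeded the threshold in 1 of the alternatives, without E14.5 replicate 3 (0.0659).

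Around it the Tnc differences were smaller. The start region, which contains the TATA-like sequences above, had 33.2, 47.1 and 33.6 CPM at E14.5 and 51.8, 46.3 and 54.1 CPM at P0. E14.5 replicate 2 lay within the P0 range there, and the log2 fold change was 0.42 (SE 0.20; adjusted p = 0.288). Upstream of the start, a pair of regions at 18.6 kb (chr4:64064974-64066327; log2 fold change 0.55, SE 0.19, adjusted p = 0.123) and 20.5 kb (chr4:64067267-64067837; 1.06, SE 0.36, adjusted p = 0.109) had all P0 libraries above all E14.5 libraries. E14.5 replicate 2 was the highest E14.5 library in each of the 8 Tnc regions. Without that library 4 Tnc regions passed: the one 25.8 kb into the gene (log2 fold change 1.70, adjusted p = 0.017), the upstream region at 20.5 kb (1.44, 0.0404), one 3.06 kb into the gene (0.88, 0.0308) and one beyond its end (0.88, 0.0435).

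The Fraser complex genes had 29 regions, of which 1 rose and 1 fell in edgeR, both within Fras1 (6.9%, against 4.73% of all regions), a share near the background. Fras1, the largest of the 10 gene bodies with 411 kb, had 2 of its 17 regions past the threshold in edgeR and in limma-voom, in opposite directions, and 4 in DESeq2. Over all regions, 4.38% passed in limma-voom and 6.38% in DESeq2. In 5 of the 17 all P0 libraries were above all E14.5 libraries and in 3 they were below, against 11.8% and 12.4% of all regions. The region that fell, 78.4 kb into the gene and outside its exons (chr5:96451829-96452534), had 7.35, 11.2 and 10.9 CPM at E14.5 and 4.06, 1.66 and 5.21 CPM at P0. All P0 values were below those of E14.5, and the log2 fold change was -1.38 (SE 0.36; adjusted p = 0.0408). The region that rose, 181 kb into the gene and overlapping an exon (chr5:96554111-96556315), had 10.2, 8.23 and 6.42 CPM at E14.5 and 17.0, 19.4 and 12.9 CPM at P0. The stages were separate, and the log2 fold change was 0.98 (SE 0.25; adjusted p = 0.0373). Both calls were near the threshold. The first was lost in 5 of the 6 fits that leave out 1 library, with adjusted p-values from 0.0559 to 0.188, the exception being the fit without P0 replicate 3. It was also lost with the replicate number as a block (adjusted p = 0.0633). The second was lost without E14.5 replicate 2 (0.0612), E14.5 replicate 3 (0.201), P0 replicate 1 (0.168) or P0 replicate 2 (0.108).

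Regions of Fras1 with opposite differences lay close together. The region that fell was followed after 4.78 kb by one at 84.0 kb (chr5:96457316-96458249) with 2.85, 6.48 and 3.15 CPM at E14.5 and 8.95, 7.42 and 7.42 CPM at P0 (log2 fold change 0.91, SE 0.34, adjusted p = 0.158). Further on, a region at 142 kb (chr5:96515321-96517067; log2 fold change 0.56, SE 0.22, adjusted p = 0.168) was followed after 5.42 kb by one at 149 kb (chr5:96522486-96523827; -1.07, SE 0.29, adjusted p = 0.0508). In the latter the values were 15.5, 20.9 and 29.4 CPM at E14.5 and 7.39, 8.32 and 15.2 CPM at P0. It passed with DESeq2 (adjusted p = 0.017). In edgeR it passed with DESeq2 size factors (0.0493), with the replicate number as a block (0.0161), and without E14.5 replicate 1 (0.0441) or P0 replicate 3 (0.00626). In each of these 4 regions the stages did not overlap, and both pairs had P0 above on one side and P0 below on the other. E14.5 replicate 2 was the highest E14.5 library in 14 of the 17 Fras1 regions. Without it, 4 Fras1 regions passed, all higher at P0, among them those at 84.0 kb (log2 fold change 1.39, adjusted p = 0.0284) and 142 kb (0.81, 0.0319).

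**Figure D4:**
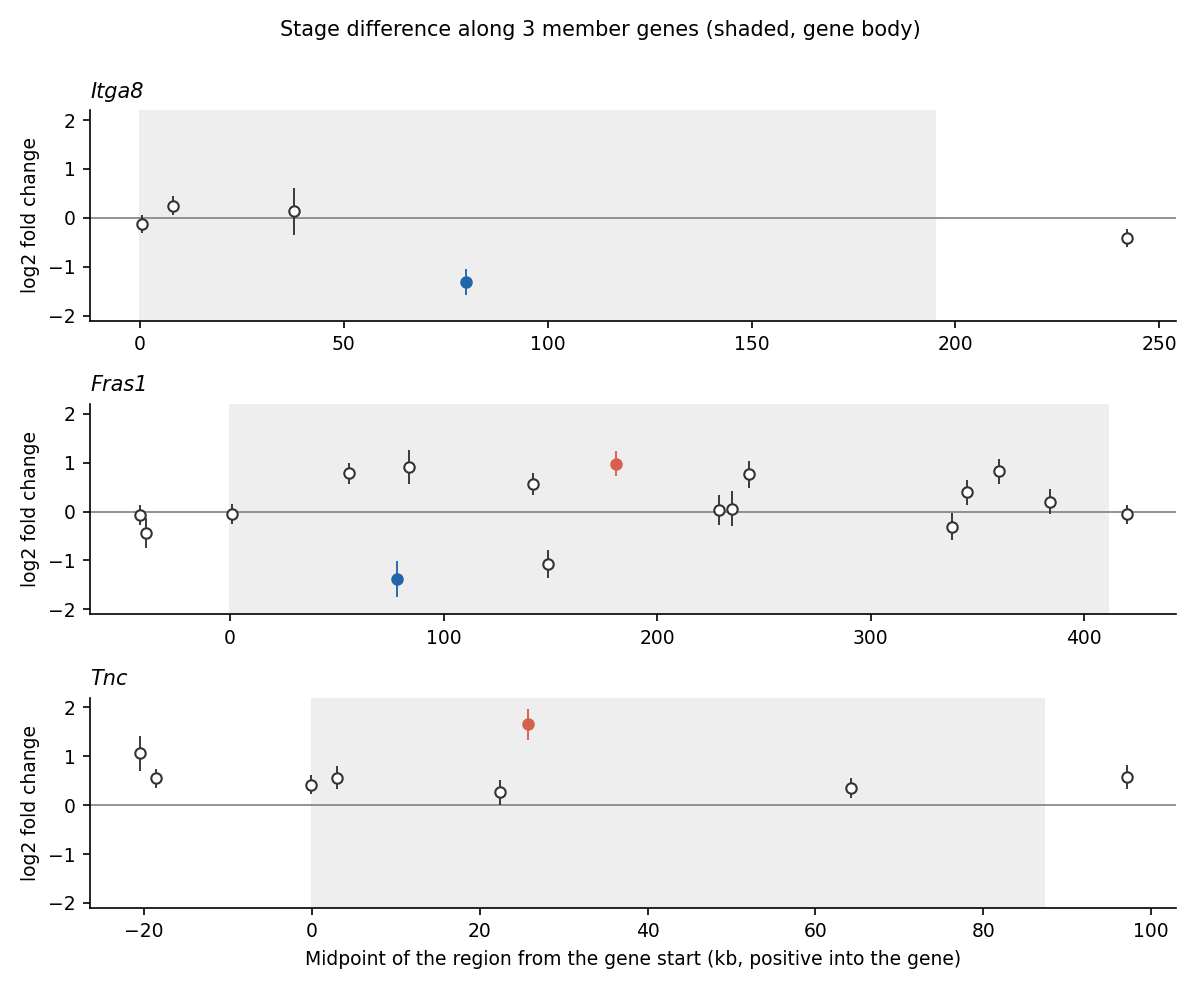
Log2 fold change of P0 against E14.5 (with its standard error) against the distance of each region's midpoint from the gene start in kb, for Itga8, Fras1 and Tnc; the gene body is shaded and filled points passed an adjusted p of 0.05. Tnc regions all lie above 0, while those of Fras1 run from -1.38 to 0.98, with 10 of 17 above 0.

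Frem1 and Frem2, the other members of that complex, had 0 of 7 and 0 of 5 regions past the threshold with edgeR, DESeq2 or limma-voom, and 0 at an unadjusted p under 0.05 in edgeR. Of all regions, 4.73% passed in edgeR, 6.38% in DESeq2 and 4.38% in limma-voom, and 18.7% had an unadjusted p under 0.05 in edgeR. Counts of 0 in so few regions are near the background. Log2 fold changes above 0 were found in 51.1% of all regions and in 59.3% of those not classed as promoters. Here all 12 were above 0, from 0.12 to 0.36 at Frem1 and from 0.11 to 0.50 at Frem2. The highest of these, in a Frem2 region 102 kb into the gene (chr3:53555258-53557299), rested on 10.1, 9.37 and 7.36 CPM at E14.5 and 11.8, 12.1 and 13.9 CPM at P0 (SE 0.23, adjusted p = 0.272). That of Frem1, 0.36 (SE 0.57, adjusted p = 0.797), came from a weak region 22.9 kb upstream (chr4:83074874-83075976) with 0.525 to 3.18 CPM in the 6 libraries. The Frem1 region with the highest CPM, not adjusted for length, lay 28.2 kb upstream (chr4:83079189-83082255), with 31.2, 37.4 and 32.8 CPM at E14.5 and 39.3, 36.8 and 37.6 CPM at P0 (log2 fold change 0.16, SE 0.18, adjusted p = 0.696).

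Counts were also summed over the regions of each gene, which gives 1 value per gene and library. The sums of Itga8 were 110, 108 and 122 CPM in E14.5 replicates 1 to 3 and 87.8, 88.1 and 93.5 CPM in P0 replicates 1 to 3, or 113 ± 7.43 and 89.8 ± 3.20 CPM (SD, n = 3 each). All P0 libraries were below all E14.5 libraries, a change of -20.6%. Most of this difference lay in the region 79.9 kb from the start, whose mean was 29.5 CPM at E14.5 and 11.7 CPM at P0. Itgb1 sums were 167, 135 and 171 CPM at E14.5 and 134, 105 and 120 CPM at P0, a change of -23.9%. Here E14.5 replicate 2 and P0 replicate 1 nearly touched, and the groups overlapped with DESeq2 size factors (exact permutation p = 0.2) or when only regions within 10 kb of the gene were summed (p = 0.3).

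Tnc had the largest difference of these sums, with 112, 169 and 114 CPM at E14.5 and 194, 176 and 191 CPM at P0, a change of 42.2%. Its log2 ratio was 0.51, and 0.40 without E14.5 replicate 1 or 0.73 without E14.5 replicate 2. Frem1 differed by 16.8%, from 118 ± 7.39 to 138 ± 2.95 CPM, and Frem2 by 15.4%, from 66.8 ± 2.98 to 77.1 ± 4.36 CPM (SD, n = 3 each), both with all P0 libraries above all E14.5 libraries. In the other 5 genes the stages overlapped, with changes from -7.56% at Itga9 to 9.17% at Npnt. In the two-sided exact permutation test the 5 separate genes each had p = 0.1, the smallest that 3 libraries against 3 allow, and 0.2 after Benjamini-Hochberg adjustment over the 10 genes, so that no difference could pass. The stages were separate in 5 of these 10 sums, 3 with P0 above and 2 with P0 below, against 17.2%, 4.69% and 12.5% of the 19326 protein-coding genes with a region by the same rule.

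**Figure D5:**
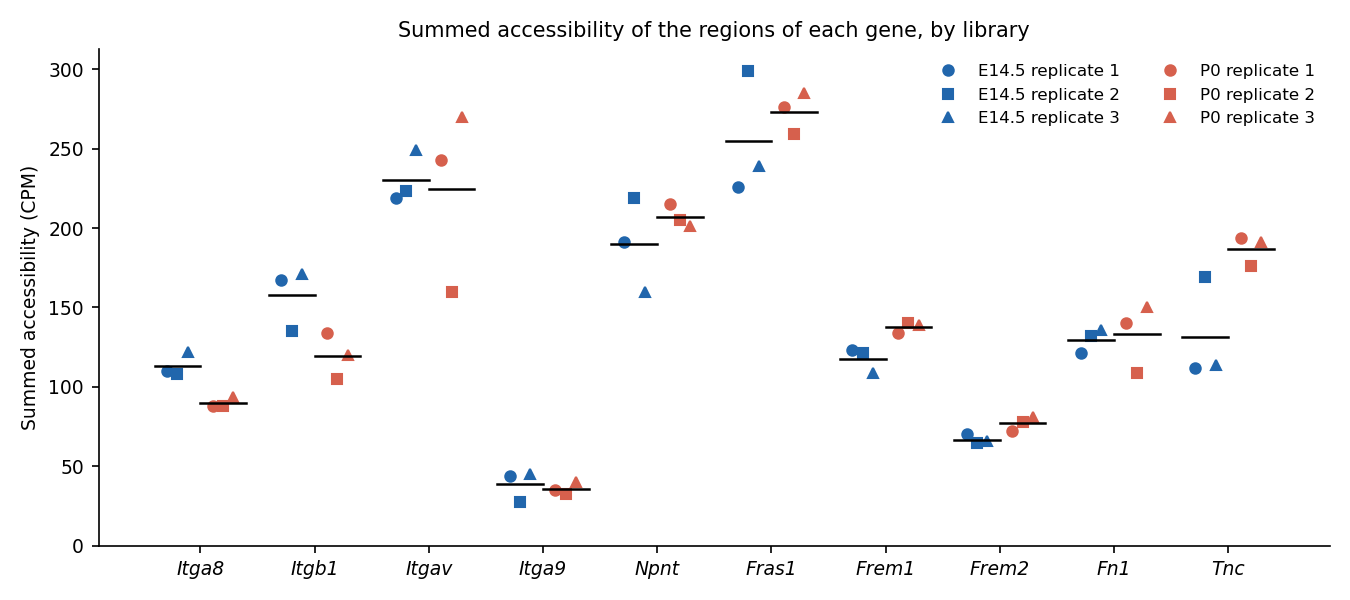
Summed accessibility (CPM) of all regions of each gene, by library (blue, E14.5; red, P0; the marker shape gives the replicate; black lines, stage means). The P0 libraries lie below those of E14.5 at Itga8 and Itgb1 and above them at Frem1, Frem2 and Tnc; at Tnc, E14.5 replicate 2 (169 CPM) stands above the other E14.5 libraries.

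Motif matches were read from the annotation in the table, whose threshold is not given in the sources used here. Forkhead motifs were listed in 19 of the 72 regions (26.4%, against 21.0% of all regions), Maz motifs in 18 (25.0% against 21.3%) and Sox motifs in 9 (12.5% against 13.2%). E2f motifs were listed in 6 (8.33% against 15.2%) and Meis motifs in 2 (2.78% against 5.46%). A Six2 motif, that of a transcription factor which maintains the progenitor state, was listed in 3 of the 72 (4.17% against 2.65%). Of these, 1 lay 39.5 kb upstream of Fras1 (chr5:96333802-96334699), 1 in the region at the promoter of Anxa3 beyond the end of Fras1, and 1 in the region that overlaps Tbck near Npnt. None of these 3 regions passed the threshold. Of the 5 regions that did, those of Itga8 and Itgb1 were listed with a Maz motif and the other 3 with no motif.

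The authors' deposited table classed 3 of the 72 regions as opening (4.17%, against 2.86% of all regions) and 2 as closing at P0 (2.78%, against 2.48%), both near the share of all regions. In the authors' deposited table, opening regions were the Tnc regions 25.8 kb into the gene (adjusted p-value 0.0393) and 20.5 kb upstream (0.0984) and the Fras1 region at 181 kb (0.0908). Closing regions in the authors' deposited table were the Itga8 region at 79.9 kb (adjusted p-value 0.0725) and the Itgb1 region 31.2 kb upstream (0.0687). The Fras1 region at 78.4 kb was classed as stable in the authors' deposited table (adjusted p-value 0.172).

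The wider group of 28 integrin subunits, matrix partners and adhesion signalling genes had 125 regions by the same rule, all 28 genes having at least 1. Of these, 3 rose and 1 fell (3.20%, against 4.73% of all regions, 1.79% higher and 2.94% lower), so the share of regions that passed was not above that of the table. The median log2 fold change was -0.09, against 0.01 over all regions. Many of the 125 were promoter regions by the class of the table. Over all regions of that class the median was -0.10 and 0.851% passed, and over the others 0.10 and 6.59%. The 125 regions were not split by class, so their median and share are not read as a trait of these genes. Itga4, an alpha chain that binds fibronectin, had 2 of the 3 gains. The first, a promoter region 1.46 kb upstream of the RefSeq start (chr2:79253758-79254182), had 6.19 ± 2.05 CPM at E14.5 and 14.3 ± 0.843 CPM at P0 (SD, n = 3 libraries each; log2 fold change 1.21, SE 0.27, adjusted p = 0.0202). The second lay 48.9 kb upstream (chr2:79205841-79207132; 0.95, SE 0.25, adjusted p = 0.0397). The third gain, near Itga2, lay within the neighbouring gene Mocs2 (chr13:114821591-114822324; 1.99, SE 0.29, adjusted p = 0.00242). The loss lay within Lims1, which encodes an adaptor of integrin adhesions (chr10:58382158-58383890). It measured 17.0, 23.3 and 23.8 CPM at E14.5 and 9.37, 9.69 and 9.95 CPM at P0, without overlap between the stages; the log2 fold change was -1.14 (SE 0.22; adjusted p = 0.00818). Without E14.5 replicate 3 or without P0 replicate 1, only the region near Itga2 passed, and without E14.5 replicate 2 there were 7. The call 48.9 kb upstream of Itga4 was near the threshold. It was lost in 5 of the alternatives, with an adjusted p of up to 0.21. The other Itga4 call and that of Lims1 were each lost in 2.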

How the data were processed

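Per the file headers, the deposited table holds whole-number counts of each region in 6 libraries, with the authors' log2 fold change, test score and p-value. The build was mm10, per the submitters' processing notes; the aligner, peak caller, counting rule and any Tn5 shift are not given in the sources used here. Columns were matched to libraries by title (0 unmatched). Of 45489 rows, 43523 distinct regions were kept.

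Regions were tested with edgeR 4.0.16 (R 4.3.3): TMM scaling, filterByExpr (which kept 43523), quasi-likelihood test of stage, with no covariate, Benjamini-Hochberg adjustment over all regions, threshold 0.05. The fit was tested on simulated data. CPM used TMM-scaled library sizes. The SE was the log2 fold change divided by the square root of F. DESeq2 1.42.0, limma 3.58.1 (voom), other scalings, filters, gene windows, a replicate block and leaving out each library were alternatives. Gene bodies and promoters came from RefSeq GRCm38.p6.

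The genes, lists and tests were chosen with earlier results of these data known. Regions named were those past the threshold and, per gene, the region at the start, the one with the highest CPM and the most changed one; other regions named were chosen after their values were seen. Figures used matplotlib 3.10.9.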

Additional observations from a re-analysis of the deposited data

How the results depend on the processing

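With a threshold of 0.1 in place of 0.05, 8 regions at the 10 genes passed, 4 of them higher at P0 (all regions, 8.02%, with 3.67% higher). The other scalings, filters, tests and gene windows gave 4 to 7 regions against 5, with 4 (2 higher and 2 lower) under total-count scaling (all regions, 4.47%) and 7 in DESeq2 (6.38%). Leaving out each library in turn, 0 to 9 passed, 0 to 8 higher and 0 to 4 lower at P0. At the other integrin and adhesion genes 1 to 7 passed, 1 to 6 higher and 0 to 1 lower. The cause of these shifts was not tested; fewer libraries leave fewer degrees of freedom.

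The sums that were near 0 changed sign. For Itgav (log2 ratio -0.04) the value was 0.02 with total-count scaling and -0.19 to 0.16 without 1 library. For Itga9 (-0.11) it was 0.05 within 10 kb of the gene or without promoters of other genes, and -0.31 to 0.00 without 1 library. For Fn1 (0.03) it was -0.12 without promoters of other genes, which leaves out its start region, and -0.06 to 0.16 without 1 library. The sums of Itga8, Itgb1, Npnt, Fras1, Frem1, Frem2 and Tnc kept their direction in the alternatives run. The alternatives were run on the regions chosen by the naming rule, not on all 72. Among these, those whose log2 fold change changed sign were the Fras1 start (0.00 with total-count scaling, -0.25 to 0.09 without 1 library), the starts of Itgav (-0.50 to 0.21), Itga9 (-0.16 to 0.25) and Fn1 (-0.01 to 0.22), the Atic promoter near Fn1 (-0.10 to 0.16) and the weak Frem1 region (-0.12 to 0.95).

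With the replicate number as a block, 6 regions at the 10 genes passed, 2 higher and 4 lower (all regions, 4.21%). The block added the Fras1 region at 149 kb (adjusted p = 0.0161) and the Itgb1 region 5.53 kb upstream (0.0481) and lost the Fras1 region at 78.4 kb (0.0633). The correlations of same-numbered libraries over all regions, as deviations from their stage means, were 0.067, -0.140 and 0.077, and not every library correlated best with its own number, so the libraries were treated as unpaired.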

Other observations

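The table also lists predicted target genes for many regions. Of 18697 regions with a listed target found in RefSeq, 134 (0.717%) had a target on their own chromosome. Of the 72 regions at the 10 genes, 20 had listed targets, and 0 of these had one on the chromosome of the region. The targets were therefore not used. Enhancer coordinates, in a column headed with the older build mm9, were listed for 4201 regions and overlapped the region as written in 253, and were not used either.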
